A study of Mus musculus with 8 samples.

Results

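The genes described here are 32 genes of glycolysis and of the transcriptional response to low oxygen, followed in endothelial cells (EC) of the mouse heart. They were chosen by name, all 32 were present among the 16791 genes of the deposited count table, and none was chosen by its level. They comprise 3 transporters of glucose or lactate (Slc2a1, Slc2a3, Slc16a3), 9 genes of the upper part of glycolysis (Hk1, Hk2, Gpi1, Pfkl, Pfkp, Pfkm, Pfkfb3, Aldoa, Tpi1), 6 of its lower part (Gapdh, Pgk1, Pgam1, Eno1, Pkm, Ldha), 12 genes known as hypoxia-responsive (Bnip3, Egln1, Egln3, Ero1l, P4ha1, P4ha2, Ndrg1, Ankrd37, Mif, Ddit4, Pdk1, Higd1a) and the HIF alpha subunits Hif1a and Epas1. The study compared 4 healthy mice with 4 mice at 7 days post-MI, 1 10X Chromium library per mouse, and the mice are named by group and number (Healthy 227, 228, 239, 240; MI 244, 250, 255, 256). All were adult Pdgfb-iCreERT2-R26R-Brainbow2.1 mice given tamoxifen, so that the Confetti reporter was switched on in cells in which the Pdgfb promoter drove Cre, and the sorted cells were CD31+ Confetti+ Podoplanin- cells of the ventricles. MI was made by tying off the left anterior descending artery permanently, in an operation with the chest opened under isoflurane and followed by buprenorphine. The healthy mice received tamoxifen and had no surgery, so MI and the operation with its drugs cannot be told apart here.

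Glycolysis splits glucose into pyruvate and yields ATP without oxygen, and EC are known to draw most of their ATP from it even when oxygen is present. HIF-1α (Hif1a) and HIF-2α (Epas1, the form typical of endothelium) are transcription factors whose proteins are hydroxylated by the prolyl hydroxylases Egln1 and Egln3 and then degraded when oxygen is present. At low oxygen they persist and bind the hypoxia response element, whose core is ACGTG or GCGTG, at genes of glucose uptake, glycolysis, lactate export and other pathways. HIF protein is regulated mainly after transcription, so the mRNA levels of Hif1a and Epas1 reported here do not measure HIF activity.

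Levels are UMIs (unique molecular identifiers, 1 per captured transcript) per 1000000 UMIs of a mouse (CPM), after each endothelial cell was thinned at random to 1000 UMIs so that all cells had the same depth. This matters because the libraries differed, with a median of 1872 to 2754 UMIs per gated cell in the healthy mice and 3411 to 4685 in the MI mice. Cells were kept as endothelial by their marker UMIs, and copies of cells were left out. Of each pair of matching cells the one with fewer UMIs was taken as the copy, and which mouse the cells came from was not tested. By this rule Healthy 228 held 2030 copies of cells of Healthy 239 (55.3% of its cells, from 2041 shared barcodes), Healthy 227 held 301 copies of cells of Healthy 228 (316 shared barcodes), and Healthy 239 held 2 of Healthy 240. After thinning, 10173 cells of healthy mice and 16151 cells of MI mice were analysed, and 585 healthy cells with fewer than 1000 UMIs were left out. The 12 endothelial markers summed to 30280 to 35763 CPM in the healthy and 24032 to 29803 CPM in the MI mice. Xist was near 0 in 1 mouse of each group. Markers of other cells moved with the condition: 17 haematopoietic genes summed to 35.5 to 172 CPM in the healthy and 326 to 598 CPM in the MI mice, with 9 of the 17 higher in every MI mouse, and the 7 fibroblast genes to 8.08 to 14.7 and 19.98 to 32.1 CPM. Of the haematopoietic genes, Lyz2 was the most abundant, at 8.98 to 40.5 and 129 to 235 CPM, Ptprc (CD45) was at 0 to 0.90 and 0.88 to 2.17 CPM, and Cd3e was at 0 in every healthy mouse. The 8 cell cycle genes summed to 66.7 to 87.1 and 291 to 529 CPM, and all 8 were higher in every MI mouse.

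In the MI mice, 12 of the 31 members tested rose, 3 fell and 16 did not pass the test. The genes that rose were the lactate exporter Slc16a3, the glucose transporter Slc2a1, 6 glycolytic enzymes (Pfkm, Tpi1, Gapdh, Pgam1, Eno1, Pkm), Egln3, Ddit4, Mif and Hif1a, and those that fell were P4ha1, Ndrg1 and Epas1. The 15 calls were 48.4% of the members tested, against 25.3% of all 10687 genes tested, and the 12 rises set against 12.7% of all genes called higher and 12.6% called lower (edgeR quasi-likelihood test on UMIs summed per mouse, Benjamini-Hochberg adjusted p under 0.05 over all genes). The median log2 fold change was 0.25 over the members and -0.02 over all genes. With scaling by library size alone in place of TMM, the median over all genes was 0.07, the calls over all genes split into 1777 higher and 983 lower in place of 1359 and 1343, and 14 members were higher and 2 lower. Added together, the 32 members held 3275 to 4071 CPM in the healthy and 4340 to 5231 CPM in the MI mice, with no overlap. Hk2, an inducible hexokinase, had 0 or 1 UMI per healthy and 0 to 3 UMIs per MI mouse after thinning and was not tested.

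**Figure D1:**
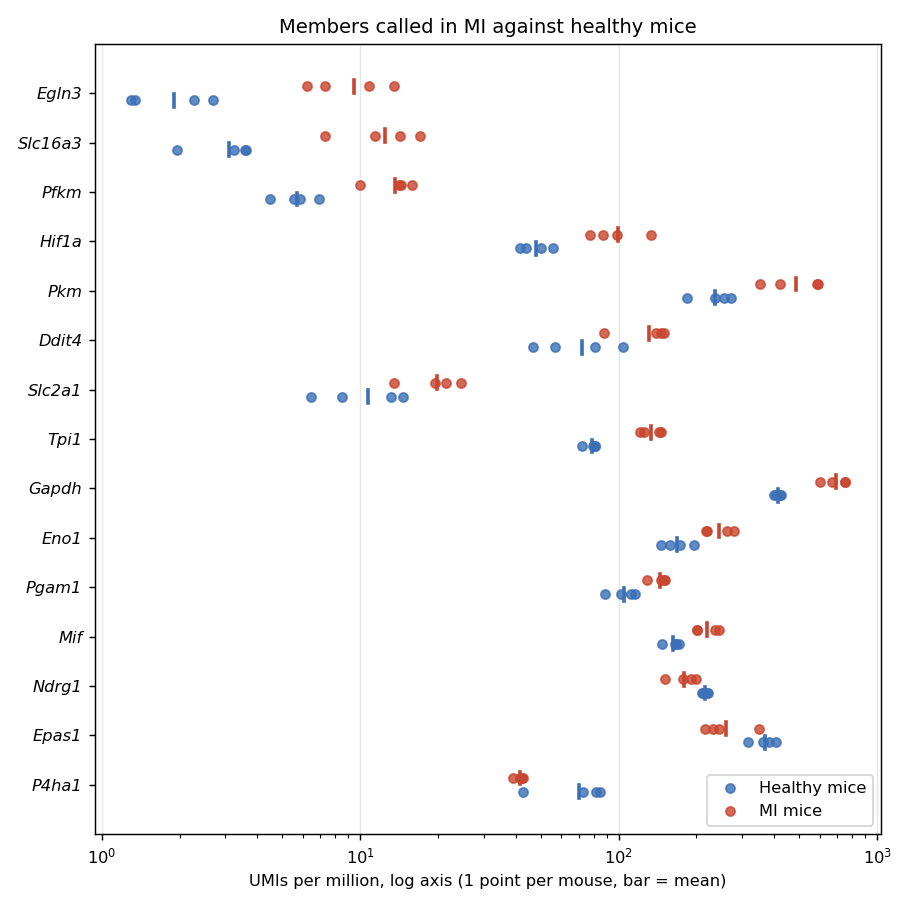
Levels of the 15 members called in MI against healthy mice, in CPM on a log axis, with 1 point per mouse and a bar at the mean of each group (4 mice each). Egln3 and Slc16a3 lie furthest apart between the groups, and in Slc2a1, Ddit4, Epas1 and P4ha1 points of the groups meet or nearly meet.

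Of the 3 transporters, Slc16a3 and Slc2a1 rose and Slc2a3 did not pass the test. Slc16a3 (MCT4, which carries lactate out of the cell) was at 3.59, 3.24, 3.60 and 1.96 CPM in Healthy 227, 228, 239 and 240 and at 14.2, 11.4, 17.0 and 7.32 CPM in MI 244, 250, 255 and 256. No MI mouse fell within the healthy range, and the log2 fold change was 1.94 ± 0.31 (SE, 4 mice per group, edgeR adjusted p = 0.0015). These levels rest on 5 to 12 UMIs per healthy mouse and 25 to 64 per MI mouse. Slc2a1 (GLUT1, the main glucose transporter of endothelium) was at 8.53, 6.48, 13.2 and 14.7 CPM in the healthy and 19.5, 21.4, 24.6 and 13.5 CPM in the MI mice. MI 256 lay within the healthy range, the log2 fold change was 0.73 ± 0.24 (edgeR adjusted p = 0.0444), and the call was lost in 12 of the 26 other settings, with adjusted p between 0.0526 and 0.824. Slc2a3 (GLUT3) was low, at 2.25 to 6.60 CPM in the healthy and 2.65 to 3.13 CPM in the MI mice, and its log2 fold change of -0.81 did not pass the test.

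In the upper part of glycolysis, 2 of the 8 members tested rose and none fell (25% called, near the 25.3% of all genes). Tpi1 (triosephosphate isomerase) was at 81.3, 79.7, 81.3 and 72.3 CPM in the healthy and 143, 121, 146 and 125 CPM in the MI mice. The groups were well apart, with a log2 fold change of 0.68 ± 0.09 (edgeR adjusted p = 0.00066). Pfkm, the muscle-type subunit of phosphofructokinase, was at 4.49, 5.83, 6.90 and 5.54 CPM in the healthy and 14.4, 14.1, 15.9 and 9.96 CPM in the MI mice, with a log2 fold change of 1.16 ± 0.21 (edgeR adjusted p = 0.00284). The Pfkm call was lost with cells thinned to 500 UMIs (log2 fold change 0.77, edgeR adjusted p = 0.0814). The other 2 subunits of the same enzyme did not pass the test: Pfkl had a log2 fold change of 0.22 ± 0.20 and Pfkp of 0.07 ± 0.17. Hk1 (hexokinase, 0.24), Gpi1 (glucose-6-phosphate isomerase, 0.25), Aldoa (aldolase, 0.19) and Pfkfb3 (which makes the activator of phosphofructokinase, -0.46) did not pass it either.

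In the lower part, 4 of 6 members rose and none fell (66.7% called, against 25.3% of all genes). Gapdh was at 397, 407, 424 and 421 CPM in the healthy and 753, 671, 752 and 603 CPM in the MI mice. The healthy mice lay close together (SD 12.3 CPM) and all below the MI mice, with a log2 fold change of 0.66 ± 0.09 (edgeR adjusted p = 0.00056). Pkm (pyruvate kinase, the last step to pyruvate) was at 236, 183, 272 and 256 CPM in the healthy and 590, 422, 585 and 351 CPM in the MI mice, a log2 fold change of 0.95 ± 0.16 (edgeR adjusted p = 0.00216). Eno1 (enolase) was at 159, 173, 196 and 146 CPM in the healthy and 279, 220, 262 and 217 CPM in the MI mice. The groups did not overlap, and the log2 fold change was 0.45 ± 0.12 (edgeR adjusted p = 0.0149), with the call lost in 3 other settings, 1 of them without MI 244. Pgam1 (phosphoglycerate mutase) was at 88.9, 102, 116 and 112 CPM in the healthy and 151, 150, 146 and 129 CPM in the MI mice, a log2 fold change of 0.37 ± 0.10 (edgeR adjusted p = 0.0179). Its groups did not overlap, but the call was lost in 5 other settings. Ldha (lactate dehydrogenase, 0.36 ± 0.17) and Pgk1 (phosphoglycerate kinase, -0.05 ± 0.37) did not pass the test. Several glycolytic genes, Gapdh among them, have near-identical copies elsewhere in the genome, for which a counter may assign or drop reads, so their levels are uncertain to a degree that was not measured.

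**Figure D2:**
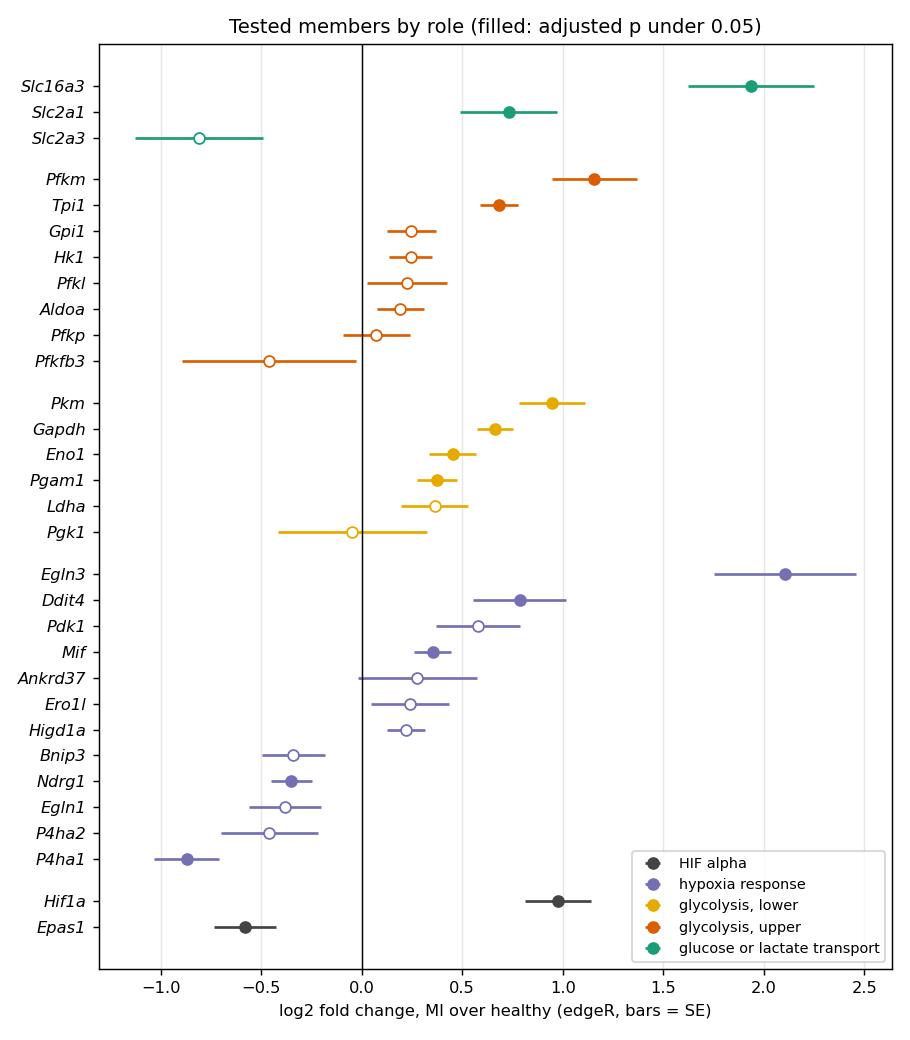
Log2 fold change of MI over healthy mice for the 31 members tested, grouped by role, with bars of 1 SE (edgeR, 4 mice per group) and filled points for adjusted p under 0.05. The points called higher run from 0.35 (Mif) to 2.11 (Egln3), and those called lower from -0.87 (P4ha1) to -0.35 (Ndrg1).

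The hypoxia-responsive genes did not move in 1 direction: 3 of 12 rose, 2 fell and 7 did not pass the test (41.7% called, against 25.3% of all genes). Egln3 (PHD3, a HIF prolyl hydroxylase that HIF itself induces) was at 1.35, 1.30, 2.70 and 2.28 CPM in the healthy and 10.8, 6.24, 13.5 and 7.32 CPM in the MI mice. It had the highest log2 fold change of the members tested, 2.11 ± 0.35 (edgeR adjusted p = 0.00186), from 2 to 9 UMIs per healthy and 25 to 51 per MI mouse. Its relative Egln1 (PHD2) was at 38.7 to 45.0 CPM in the healthy and 26.7 to 48.1 CPM in the MI mice and did not pass the test (log2 fold change -0.38 ± 0.18). Ddit4 (REDD1, an inhibitor of mTORC1 signalling) was at 46.7, 104, 81.0 and 56.7 CPM in the healthy and 139, 150, 146 and 87.9 CPM in the MI mice. Healthy 228 lay above MI 256, the log2 fold change was 0.79 ± 0.23 (edgeR adjusted p = 0.0278), and the call was lost in 9 other settings, 1 of them another random draw of the UMIs. Mif (a cytokine) was at 166, 148, 171 and 165 CPM in the healthy and 244, 202, 236 and 200 CPM in the MI mice, without overlap (log2 fold change 0.35 ± 0.09, edgeR adjusted p = 0.0156), and lost its call in 3 other settings, 1 of them without MI 244.

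P4ha1, a subunit of the prolyl 4-hydroxylase that modifies collagen, fell. It was at 81.7, 42.7, 84.3 and 73.0 CPM in Healthy 227, 228, 239 and 240 and at 41.6, 39.1, 42.7 and 42.2 CPM in the MI mice. The MI mice were nearly equal, and Healthy 228 was beside them while the other healthy mice were higher (log2 fold change -0.87 ± 0.16, edgeR adjusted p = 0.00299). Ndrg1, a stress-responsive gene, was at 212, 222, 219 and 210 CPM in the healthy and 150, 177, 191 and 199 CPM in the MI mice, without overlap (log2 fold change -0.35 ± 0.10, edgeR adjusted p = 0.0275), and lost its call in 7 other settings. The genes not called were Bnip3 (mitophagy, -0.34), P4ha2 (-0.46), Ero1l (oxidative protein folding, 0.24), Ankrd37 (0.28), Pdk1 (which inhibits pyruvate dehydrogenase, 0.58) and Higd1a (a mitochondrial protein, 0.22), with Egln1 the other one. Pdk1 was called higher in 5 other settings, among them another random draw and all UMIs not thinned (adjusted p between 0.0155 and 0.0447). Of the other members not called, over all roles, Slc2a3 was called in 3 settings, Egln1, Hk1 and P4ha2 in 2 each, and Higd1a, Ldha and Pgk1 in 1 each. Among these, Pdk1 and Higd1a were higher in every MI mouse, at 17.7 to 25.7 against 7.12 to 16.9 CPM and at 123 to 153 against 103 to 122 CPM.

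The 2 HIF alpha subunits moved in opposite directions. Hif1a was at 55.7, 49.9, 43.8 and 41.4 CPM in the healthy and 98.5, 77.7, 133 and 86.7 CPM in the MI mice. All MI mice were higher than all healthy mice, and the log2 fold change was 0.98 ± 0.16 (edgeR adjusted p = 0.00189). Epas1 was at 408, 383, 362 and 317 CPM in the healthy and 215, 245, 231 and 350 CPM in the MI mice. MI 256 lay within the healthy range and the other 3 MI mice below it (log2 fold change -0.58 ± 0.16, edgeR adjusted p = 0.019). The Epas1 call was lost without MI 244, MI 250 or MI 255, and in 5 settings in all, with adjusted p between 0.0552 and 0.124. The Hif1a call was kept in every setting.

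The share of cells with at least 1 UMI, also at 1000 UMIs per cell, lay higher in all MI than in all healthy mice for 12 of the 32 members and lower for 2, against 18.2% and 9.0% of all genes tested. Gapdh was found in 33.0% ± 0.904 of healthy and 47.6% ± 3.23 of MI cells, and Pkm in 20.7% ± 3.02 and 36.2% ± 6.74 (SD, n = 4 mice each; two-sided exact permutation test, p = 0.0286 for each, the smallest that 4 against 4 mice allow). Hif1a was found in 4.60% ± 0.564 and 9.14% ± 2.15 of cells (exact permutation test, p = 0.0286, n = 4). Epas1 was found in 29.3% ± 2.38 and 21.6% ± 4.24 (exact permutation test, p = 0.0571, n = 4). Slc16a3 and Egln3 were found in few cells even after MI, 1.22% ± 0.396 and 0.936% ± 0.328, against 0.295% ± 0.0704 and 0.191% ± 0.0697 in the healthy mice (exact permutation test, p = 0.0286 for each, n = 4). No cell type in these samples can be taken to lack these genes, so a background share from free RNA could not be read. The haematopoietic cells left out by the gate, 1118 cells of MI mice, held Slc16a3 at 45.2 to 63.2, Egln3 at 4.02 to 8.55 and Pkm at 461 to 607 CPM.

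Since haematopoietic UMIs were more frequent in EC of the MI mice, their weight was read against the members. The haematopoietic markers in the analysed cells stood at 0.84% to 1.44% of their level in the haematopoietic cells of the same mouse. At that ratio, haematopoietic RNA would carry 0.46 to 0.70 CPM of Slc16a3 (4.14% to 6.26% of its level in the MI mice) and at most 2.54% of the level of any other member called. These values take the foreign RNA to have the make-up of the haematopoietic cells, which were picked by the same markers. Neither that nor the part of haematopoietic RNA in the rises was tested. In a setting chosen after the values were seen, every cell with a haematopoietic UMI after thinning was left out. There 14 of 30 members were called, all of them among the 15, against 2339 of 10288 genes. Slc16a3 was at a log2 fold change of 1.87 and Egln3 at 2.02 (both edgeR, adjusted p = 0.0024 and 0.0058). Slc2a1 lost its call (0.61, edgeR adjusted p = 0.084). A stricter choice, which left out every cell with any haematopoietic or cardiomyocyte UMI at full depth, kept 380 to 1016 cells per MI mouse. Gapdh, Tpi1, Pkm, Hif1a and P4ha1 were then called, 5 of 27 members tested, against 716 of 8466 genes. Hif1a was at a log2 fold change of 0.63 in place of 0.98. Slc2a1 (0.16 in place of 0.73), Mif (0.16 in place of 0.35) and Eno1 (0.25 in place of 0.45) were closer to 0 and not called. Ddit4 (0.74 in place of 0.79), Pgam1 (0.32 in place of 0.37), Ndrg1 (-0.28 in place of -0.35) and Epas1 (-0.43 in place of -0.58) were not called either, and Slc16a3, Egln3 and Pfkm were too low to be tested.

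**Figure D3:**
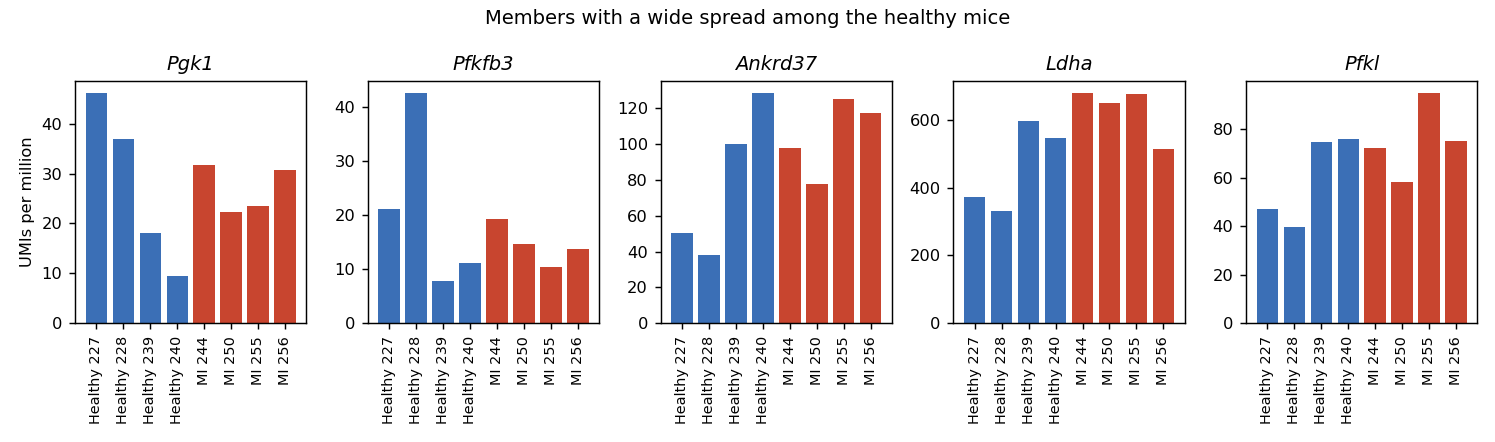
Levels in each mouse of 5 members that differed widely among the healthy mice, in CPM, with healthy mice in blue and MI mice in red (genes picked for this plot after their values were seen). Pgk1 runs from 9.45 to 46.3 in the healthy and from 22.2 to 31.8 in the MI mice, and Ankrd37, Ldha and Pfkl are lower in Healthy 227 and 228 than in the other healthy mice.

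Several members that were not called had a wide spread among the healthy mice. Pgk1 was at 46.3, 36.9, 18.0 and 9.45 CPM in Healthy 227, 228, 239 and 240, and Pfkfb3 at 21.1, 42.7, 7.80 and 11.1 CPM, so that Healthy 227 and 228 were the high pair. Ankrd37 (50.3, 38.2, 99.9 and 129 CPM), Ldha (371, 330, 596 and 545 CPM), Pfkl (47.1, 39.5, 74.7 and 75.9 CPM), Gpi1 (158, 170, 229 and 217 CPM) and Pfkp (39.1, 42.1, 67.8 and 66.8 CPM) were lower in that pair. Healthy 227 and 228 are also the mice with most copied cells, which were left out here. When both were left out, a setting chosen after the values were seen, Pgk1 was at a log2 fold change of 0.89 in MI. Pfkfb3 changed sign to 0.56 and Ankrd37 to -0.21, without passing the test. The pair was picked by the levels of these genes, so their moves follow from the choice and are no test of a change. In that setting 12 of 31 members were called, against 2105 of 11163 genes. Pgk1 was among the 12, and 9 of the 12 were among the 15. The others called were Slc2a3 (-1.04, adjusted p = 0.0458) and P4ha2 (-0.76, adjusted p = 0.00672), both lower in MI. What sets these 2 mice apart was not tested.

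The core letters of the hypoxia response element were looked for before the start of each member. The 250 bases before the start of each gene were taken from RefSeq (GRCm38.p6), which gave 41 windows for 29 of the 32 members, and were searched for ACGTG and GCGTG on both strands, where CACGTG holds 1 match on each strand. At least 1 match was found in 33 of the 41 windows (80.5%), against 38.6% of all 32851 windows, whose GC content was also lower (53.2% ± 11.6 against 62.4% ± 10.0, SD over windows). Among the members, a match was present for 10 of the 12 that rose, for P4ha1, and for 14 of the 15 with a window that were tested and not called. Windows are shown for Egln3 and Slc16a3, which rose most, P4ha1, which fell most, and Bnip3, which had 5 matches and was not called, each 5′ to 3′ on the strand of the gene with the matches in capitals.
Egln3, chr12:54203875-54204124, minus strand: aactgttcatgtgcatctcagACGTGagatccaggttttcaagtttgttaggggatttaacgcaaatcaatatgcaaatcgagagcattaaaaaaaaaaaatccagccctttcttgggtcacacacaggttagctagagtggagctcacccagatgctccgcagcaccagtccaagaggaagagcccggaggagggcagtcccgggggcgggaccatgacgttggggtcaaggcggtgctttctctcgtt
Slc16a3, chr11:120948817-120949066, plus strand: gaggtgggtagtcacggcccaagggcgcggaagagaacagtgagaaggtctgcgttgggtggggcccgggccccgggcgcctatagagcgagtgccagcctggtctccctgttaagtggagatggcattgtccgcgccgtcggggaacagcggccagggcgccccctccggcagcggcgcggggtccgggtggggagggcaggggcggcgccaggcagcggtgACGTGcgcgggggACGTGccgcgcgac
P4ha1, chr10:59323046-59323295, plus strand: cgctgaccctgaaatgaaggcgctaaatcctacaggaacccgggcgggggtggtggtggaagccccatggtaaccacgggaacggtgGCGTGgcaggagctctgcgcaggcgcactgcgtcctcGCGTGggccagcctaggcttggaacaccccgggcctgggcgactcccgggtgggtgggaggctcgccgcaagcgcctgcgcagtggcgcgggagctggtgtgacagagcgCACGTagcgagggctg
Bnip3, chr7:138909507-138909756, minus strand: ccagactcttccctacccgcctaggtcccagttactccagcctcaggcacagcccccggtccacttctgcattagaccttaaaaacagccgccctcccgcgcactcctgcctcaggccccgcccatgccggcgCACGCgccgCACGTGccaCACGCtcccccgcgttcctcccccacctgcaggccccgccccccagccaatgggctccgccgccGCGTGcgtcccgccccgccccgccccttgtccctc

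The windows of Tpi1 and Mif, which rose, held no match, nor did that of Gpi1, which was not called. A match describes the letters of the window and does not show a bound site. In the annotation of GRCm38 (GENCODE M21), Slc16a3 spans chr11:120948480-120960868 (so the window shown, placed by the RefSeq start, lies within the gene as GENCODE draws it), Egln3 chr12:54178981-54203860, Hif1a chr12:73901375-73947530, Epas1 chr17:86753700-86833410, and P4ha1 and Ddit4 both lie on chromosome 10, at 59323296 to 59373304 and 59949669 to 59951834.

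Other genes of the same pathways, in lists chosen with earlier results of these data known, were called in 13.6% to 28.3% of those tested, against 25.3% of all genes. Of 40 other genes of glycolysis and pyruvate metabolism, 22 were tested, 3 rose and none fell (13.6% called): Bpgm (bisphosphoglycerate mutase, log2 fold change 0.90 ± 0.17), Pdk2 (a pyruvate dehydrogenase kinase, 0.74 ± 0.22) and G6pc3 (a glucose-6-phosphatase, 0.57 ± 0.15). Of 19 genes of the pentose phosphate pathway and of glycogen, 18 were tested, and Pgm2, Pgd and Pgls rose (0.78, 0.56 and 0.36) while Gbe1, of glycogen branching, fell (-0.65). Of 60 other hypoxia genes, 46 were tested, 7 rose, 6 fell and 33 did not pass the test (28.3% called), with a median log2 fold change of -0.04. Among those that rose were Anln (a cytokinesis gene, 2.45 ± 0.37) and Angptl4 (an inhibitor of lipoprotein lipase, 1.55 ± 0.28), and the lowest were Cxcl12 (a chemokine, -1.18 ± 0.19), Rora (a nuclear receptor, -1.03 ± 0.17) and Mxi1 (a Myc antagonist, -0.93 ± 0.12). The edgeR adjusted p of these 5 ran from 0.000528 (Mxi1) to 0.00267 (Angptl4).

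The cells were then divided into classes by marker UMIs after thinning, in this order: Top2a (a topoisomerase of cycling cells) with at least 1 UMI, Plvap (a protein of fenestrated endothelium) with at least 2, Apln (a tip cell and sprouting marker that is itself hypoxia-responsive) with at least 1, Car4 (a capillary marker) with at least 1, and the remaining cells. In the healthy mice 20.5% to 25.6% of cells were Car4 cells, 1.30% to 3.78% Apln cells and 0.72% to 1.12% Top2a cells, and only 1 to 5 cells per mouse were Plvap-high. In the MI mice 3.29% to 12.9% were Car4 cells, 6.65% to 10.3% Apln cells and 2.52% to 5.27% Top2a cells, and 105 to 566 cells per mouse were Plvap-high. Between 69.8% and 75.4% of cells in either group met none of these rules, so most cells fell in no class, and cells with a single Plvap UMI and no other marker are among them. Levels in a class use all UMIs of its cells, and a class entered a comparison with at least 20 cells in a mouse. The median depth per cell differed between classes, with 2811 to 3560 UMIs in the Car4, 3776 to 5242 in the Apln, 5603 to 6819 in the Top2a and 6154 to 7289 in the Plvap-high cells of MI mice. Pecam1 (CD31) was at 667 to 944 CPM over the classes of the healthy mice and at 746 to 1137 CPM over those of the MI mice.

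MI and healthy mice were also compared within Car4 cells. Of 27 members tested there, 4 rose and 3 fell (25.9%, against 14.6% of the 8870 genes tested, 6.99% higher and 7.59% lower): Pkm (log2 fold change 0.79 ± 0.13, edgeR adjusted p = 0.00211), Tpi1 (0.61 ± 0.13), Gapdh (0.48 ± 0.11) and Eno1 (0.39 ± 0.12) rose, and P4ha1 (-1.12 ± 0.20, edgeR adjusted p = 0.00306), Epas1 (-0.55 ± 0.17) and Ndrg1 (-0.47 ± 0.12) fell. Hif1a, which was called over all cells, was at 39.4 to 56.9 CPM in Car4 cells of the healthy and at 61.4 to 66.0 CPM in those of the MI mice, and did not pass the test (log2 fold change 0.28 ± 0.14, edgeR adjusted p = 0.198). Slc16a3, Egln3, Pfkm, Slc2a3 and Hk2 were too low in Car4 cells to be tested. The Eno1, Epas1 and Ndrg1 calls were lost in 9, 8 and 4 other settings, and without MI 244 or without MI 250 only 4 members were called. Over all genes the calls fell there as well, from 1293 of 8870 to 629 of 9096 without MI 244 and 631 of 9061 without MI 250.

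In Apln cells, 26 members were tested, 7 rose and 1 fell (30.8%, against 7.22% of the 7392 genes tested, 3.46% higher and 3.76% lower). Tpi1 (log2 fold change 0.93 ± 0.16, edgeR adjusted p = 0.00219), Pkm (0.88 ± 0.17), Hif1a (0.86 ± 0.23), Ddit4 (0.85 ± 0.21), Eno1 (0.69 ± 0.15), Higd1a (0.62 ± 0.15) and Gapdh (0.57 ± 0.12) rose and P4ha1 fell (-0.99 ± 0.23). With UMIs thinned to 1000 per cell, which leaves fewer UMIs in this small class, only Pkm was still called. That was 1 of 18 members tested, against 116 of 2970 genes. The Hif1a call was lost in 6 other settings (without Healthy 239, Healthy 240, MI 244 or MI 255 among them), that of Ddit4 in 4 (without Healthy 239, Healthy 240 or MI 250 among them), that of Higd1a in 3 (without Healthy 239 among them) and that of P4ha1 in 2 (without Healthy 239 or Healthy 240). Slc16a3 had 0 UMIs in the 312 Apln cells of all healthy mice and 108 UMIs in those of the MI mice, at least 5.21-fold higher against a floor of 3 UMIs over the healthy group. The difference of the MI effect between Apln and Car4 cells was itself tested. No member of 30 passed (edgeR, lowest adjusted p = 0.249, against 1.53% of the 10260 genes tested, 0.526% higher and 1.0% lower), 7 had an unadjusted p under 0.05, and DESeq2 called 0, with 2 at an unadjusted p under 0.05. Over all genes, 1065 of 10260 had an unadjusted p under 0.05 with edgeR. With DESeq2 660 did, counted over all genes fitted and not only over those given an adjusted p.

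Among the cells of the MI mice, the Plvap-high cells held more of both transporters tested and of 5 of the 6 enzymes of lower glycolysis than the Car4 cells, and of 3 of the 8 members tested of its upper part (median log2 fold change 0.05). Of the 12 hypoxia-responsive genes, 4 were higher, 2 lower and 6 not called. Of 30 members tested, 15 were higher and 2 lower (56.7%, against 30.9% of the 9887 genes tested, 16.4% higher and 14.5% lower; edgeR with the mouse as a block). The comparisons with Car4 cells that follow share these Car4 cells, so they are not independent of each other. Slc16a3 was at 27.8, 23.3, 31.8 and 23.5 CPM in Plvap-high cells of MI 244, 250, 255 and 256 and at 9.32, 5.58, 3.77 and 7.87 CPM in their Car4 cells (log2 fold change 1.90 ± 0.25, edgeR adjusted p = 5.62e-07). Hif1a was at 176, 162, 192 and 219 CPM against 61.4, 63.4, 66.0 and 63.0 CPM (1.55 ± 0.10, edgeR adjusted p = 2.9e-12), and no mouse overlapped. Slc2a1 was at 41.5, 37.4, 47.4 and 21.0 CPM against 18.6, 19.1, 5.66 and 4.29 CPM (1.42 ± 0.22, edgeR adjusted p = 8.23e-06). Both members were higher in the Plvap-high cells of each of the 4 mice. Ddit4 was at 216, 253, 207 and 231 CPM against 123, 150, 81.1 and 81.6 CPM (1.04 ± 0.11, edgeR adjusted p = 1.22e-08). Egln3 (1.25 ± 0.34), Pfkl (1.06 ± 0.12), Eno1 (0.80 ± 0.10) and Gapdh (0.79 ± 0.07) were the other highest members, and Ankrd37 (-0.76 ± 0.18) and Egln1 (-0.60 ± 0.21) the lower ones. Ankrd37 was called in 10 and Egln1 in 7 of the 14 other settings, and with DESeq2 (12 members called) or without MI 255 neither was. Egln3 lost its call in 3 settings, among them DESeq2 and without MI 250. Epas1 was at 180 to 263 CPM against 171 to 321 CPM and was not called (-0.01 ± 0.10).

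The fibroblast markers moved with this comparison as well, at 42.1 to 76.1 CPM in Plvap-high and 13.2 to 19.9 CPM in Car4 cells, while the haematopoietic markers summed to 322 to 733 and 354 to 526 CPM, and the part of either in the result was not tested. With UMIs thinned to 1000 per cell, 11 of 23 members were called, against 1194 of 5616 genes, and Slc2a1 was not (log2 fold change 1.03).

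**Figure D4:**
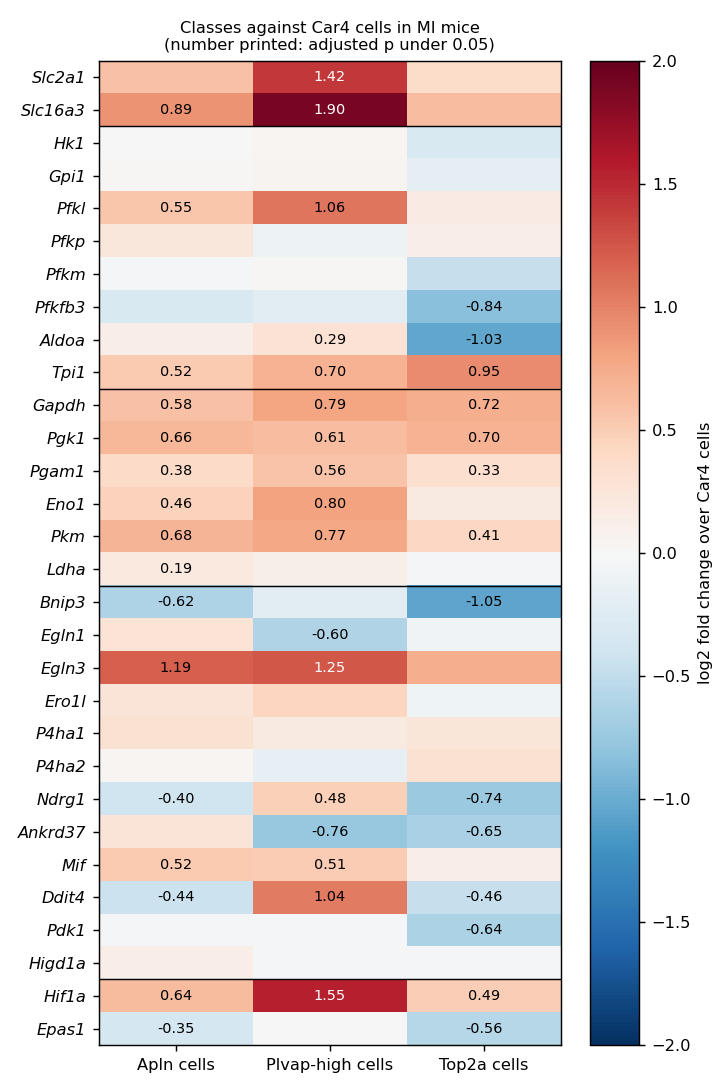
Log2 fold change of Apln, Plvap-high and Top2a cells over Car4 cells of the same 4 MI mice for the 30 members tested, grouped by role from transport at the top to the HIF alpha subunits at the bottom, with the value printed where the adjusted p was under 0.05 (edgeR, mouse as a block). Tpi1, Gapdh, Pgk1, Pgam1, Pkm and Hif1a are higher in all 3 classes, while Ndrg1 and Ddit4 are higher in Plvap-high and lower in Apln and Top2a cells.

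The Apln cells of the MI mice held more of all 6 enzymes of lower glycolysis than the Car4 cells. Over the 30 members tested, 12 were higher and 4 lower (53.3%, against 18.9% of the 9877 genes tested, 10.1% higher and 8.84% lower). Egln3 (log2 fold change 1.19 ± 0.27), Slc16a3 (0.89 ± 0.30), Pkm (0.68 ± 0.05), Pgk1 (0.66 ± 0.16), Hif1a (0.64 ± 0.10), Gapdh (0.58 ± 0.05) and Pfkl (0.55 ± 0.11) were among the higher, and Bnip3 (-0.62 ± 0.15) was the lowest. The adjusted p of these 8 ran from 2.93e-11 (Pkm) to 0.0349 (Slc16a3). Ddit4, Ndrg1 and Epas1 were the other members called lower, at -0.44, -0.40 and -0.35. They were called in 7, 10 and 11 of the 12 other settings: none of these 3 without the block, neither Ddit4 nor Ndrg1 with DESeq2, and Ddit4 not without MI 244 or without MI 250. Ldha, the lowest of the 6 enzymes (0.19), was called in 8, and not without MI 244. Hif1a lay at 98.7, 91.8, 125 and 97.4 CPM in the Apln cells of MI 244, 250, 255 and 256, above the Car4 cells of every mouse and below the Plvap-high cells of every mouse. Without the mouse as a block, 10 members were called, against 776 of 9288 genes, and Slc16a3 and Pgk1 were not. Slc16a3 and Pgk1 also lost their calls without MI 250 and with DESeq2, Slc16a3 without MI 255 as well (lowest log2 fold change 0.58), and Egln3 and Bnip3 with DESeq2. With UMIs thinned to 1000 per cell 7 of 22 were called, against 597 of 5751 genes, and Hif1a was not (0.30).

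In the healthy mice, where 29 to 124 Apln cells per mouse were available, 5 of 26 members were higher and 3 lower in Apln than in Car4 cells (30.8%, against 15.8% of the 7843 genes tested, 8.35% higher and 7.5% lower). Ndrg1 (-0.78 ± 0.14, edgeR adjusted p = 1.78e-06), Mif (0.72 ± 0.12), Ddit4 (-0.72 ± 0.23), Pkm (0.62 ± 0.11), Epas1 (-0.59 ± 0.11), Gapdh (0.50 ± 0.09), Ankrd37 (0.48 ± 0.17) and Gpi1 (0.32 ± 0.11) were called. Ndrg1 was at 122, 90.1, 152 and 134 CPM in Apln cells of Healthy 227, 228, 239 and 240 and at 218, 215, 241 and 212 CPM in their Car4 cells, lower in each mouse. Pkm, Gapdh and Mif were thus called higher, and Ndrg1, Ddit4 and Epas1 lower, in Apln cells of both groups, the lower calls with the losses given above for the MI mice. In the healthy mice the Ddit4 call was lost in 5 other settings, among them without Healthy 228 or 239, with DESeq2 and without the block (log2 fold change -0.71 to -0.35 there), and the Ankrd37 and Gpi1 calls in 7 and 6. The Hif1a levels in healthy Apln cells, 81.2, 80.0, 46.8 and 34.2 CPM, rest on 10 to 16 UMIs per mouse and lay on both sides of the Car4 cells (39.4 to 56.9 CPM).

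The Top2a cells of the MI mice differed from the Car4 cells in both directions, with 6 of 30 members higher and 8 lower (46.7%, against 35.4% of the 9852 genes tested, 19.0% higher and 16.4% lower). With the classes set on all UMIs in place of thinned ones, 13 of 31 members were higher and 8 lower, against 2516 higher and 2354 lower of 11284 genes. Aldoa was at 317, 196, 348 and 190 CPM in Top2a cells of MI 244, 250, 255 and 256 and at 572, 469, 532 and 527 CPM in their Car4 cells (log2 fold change -1.03 ± 0.10, edgeR adjusted p = 6.7e-09). Tpi1, which acts on the product of the aldolase step, went the other way, at 230, 205, 239 and 187 CPM against 110, 109, 102 and 117 CPM (0.95 ± 0.10, edgeR adjusted p = 2.04e-08). Neither gene overlapped between the classes in any mouse. Bnip3 (-1.05 ± 0.17), Pfkfb3 (-0.84 ± 0.32), Ndrg1 (-0.74 ± 0.12) and Ankrd37 (-0.65 ± 0.13) were lower, and Gapdh (0.72 ± 0.08) and Pgk1 (0.70 ± 0.17) higher. Pfkfb3 lost its call in 6 other settings, among them without MI 250, MI 255 or MI 256, and Pgk1 in 3, 1 of them without MI 244. Ddit4, at -0.46, was not called without MI 250. In 3 healthy mice with 20 or more Top2a cells, Aldoa was at 103 to 209 CPM in Top2a and at 332 to 503 CPM in Car4 cells of the 4 healthy mice, given without a test.

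**Figure D5:**
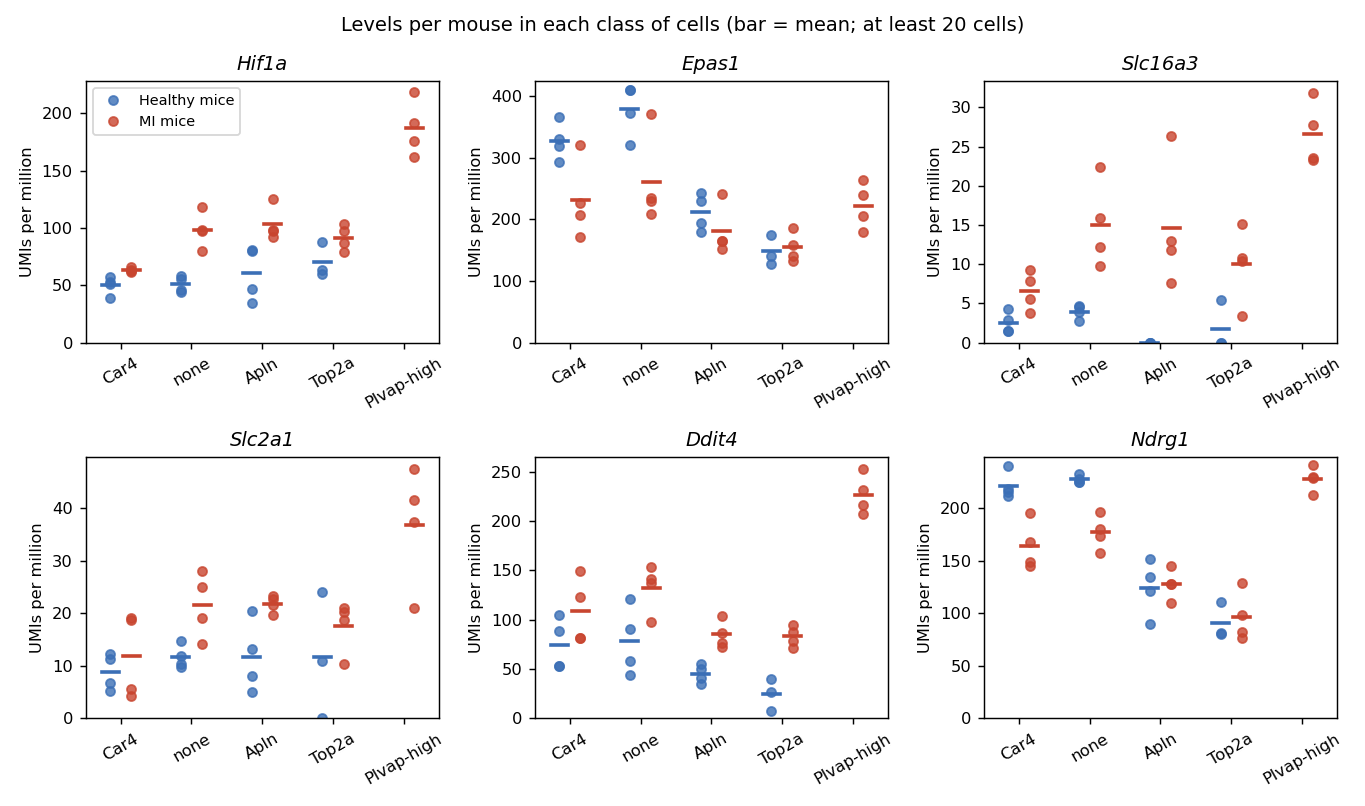
Levels of 6 members in each class of cells, in CPM over all UMIs of the class, with 1 point per mouse and a bar at the mean (blue healthy, red MI; at least 20 cells per point, so Plvap-high cells appear in MI mice only; none marks cells that fell in no class). Hif1a, Slc16a3, Slc2a1 and Ddit4 have their highest mean in the Plvap-high cells, and Epas1 and Ndrg1 are lower in Apln and Top2a than in Car4 cells of both groups.

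The comparison of MI with healthy mice was repeated without some classes, settings chosen after the values were seen. When all Apln, Plvap-high and Top2a cells were left out, 16 of 31 members were called, against 2342 of 10418 genes. Among them were all 15 called over all cells, with Slc16a3 at a log2 fold change of 1.75, Egln3 at 2.31 and Hif1a at 0.89. With only the cells that fell in no class, 14 of 30 were called, against 2098 of 10188 genes, with Slc16a3 at 1.56 and Hif1a at 0.97. In these cells Hif1a was at 44.3 to 58.2 CPM in the healthy and 79.8 to 118 CPM in the MI mice, and Slc16a3 at 2.71 to 4.67 and 9.72 to 22.3 CPM, with no overlap of the groups.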

How the data were processed

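EC from hearts of 8 mice were profiled with the 10X Genomics 3' assay. The authors deposited UMI counts per gene and cell, raw whole numbers for 31028 cells, and the submitters' processing notes name Cell Ranger, R 3.5.2, Seurat 2.3 and the mm10 genome. The table gives 6764977 to 27244947 UMIs per mouse. By the study's methods, cells with under 400 genes or over 20% mitochondrial transcripts had been removed. Floors cover counting error only, and with 1 library per mouse the spread between mice includes that between libraries.

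Here a cell was kept with at least 3 UMIs of 12 endothelial markers and more of these than of each list of haematopoietic, pericyte or smooth muscle, fibroblast, and erythroid or platelet genes. Where a barcode occurred in a pair of mice and at least 90% of the UMIs matched, the cell with fewer UMIs was left out. Doublets were not called. UMIs were summed per mouse, or per mouse and class, and tested with edgeR 4.0.16 (TMM, filterByExpr, quasi-likelihood, Benjamini-Hochberg 0.05) over all genes in R 4.3.3, with the mouse as a block between classes of the same mice. On data simulated for MI against healthy mice (10543 genes), 82% of genes raised and 69.4% of genes lowered by a log2 change of 1 were called, and 18% and 13.0% at 0.5. In the simulation 10348 genes were left unchanged, while 25.3% of all genes were called in the data. The adjusted p depends on how many genes change, so these percentages need not hold for the data. SE is the fold change divided by the root of the F statistic. Single shares were compared by exact permutation over 70 splits with Python 3.11.15 and scipy 1.17.1.

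The members and all lists were chosen with earlier results of these data known. Members called over all cells are named with each mouse, Gapdh, Hif1a, Epas1 and Slc2a1 in any case. In each class comparison the 8 called members with the greatest change, and in other lists at most 3 in each direction, are given. Some genes of those lists are not reported here. A few further members are named with their values because a sentence on their role group needed them. Alternatives were copied cells kept, other thinning depths or none, another draw, no gate or a stricter one, cells with foreign, cycling or mitochondrial UMIs left out, DESeq2 1.42.0, library size scaling, no filter, Xist as covariate, other class rules, no block, and each mouse left out.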

Additional observations from a re-analysis of the deposited data

Results flagged for a closer look

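Of 64 groups of 4 mice (32 members in each condition), 2 held a mouse far from the other 3. Chance gives about 1 such group in 20. Hk1 was at 48.6 CPM in Healthy 228 and between 56.7 and 57.5 CPM in the other healthy mice, and the gap was 0.913 of the whole range. Ero1l was at 22.9 CPM in Healthy 227 and between 13.5 and 14.9 CPM in the other healthy mice, with a gap of 0.852 of the range.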

How the results depend on the processing

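No paired analysis was possible because healthy and MI mice share no numbers, so MI against healthy has no block. Between classes of the same MI mice, the fits without the mouse as a block called 10 members in Apln, 14 in Plvap-high and 10 in Top2a cells, in place of 16, 17 and 14, and 5 in place of 8 in Apln cells of healthy mice. Over all genes, these fits called 776, 2171, 2795 and 555, in place of 1870, 3054, 3487 and 1243. With copied cells kept, the same 15 members were called in MI against healthy. The 15 of 31 fell to 5 of 27 without cells holding cardiomyocyte or haematopoietic UMIs, where fewer cells were left. Over all genes, the calls fell there from 2702 of 10687 to 716 of 8466. Some fold changes were then much smaller (Slc2a1 0.16, Mif 0.16, Eno1 0.25, Hif1a 0.63) and others close to before (Ddit4 0.74, Pgam1 0.32, P4ha1 -0.74, Tpi1 0.56), and the cause was not tested. Leaving out each mouse gave 8 (without MI 244) to 17, and 1796 (without MI 244) to 3057 calls over all genes. DESeq2 called 9 in Apln, 12 in Plvap-high and 8 in Top2a cells of MI mice and 5 in Apln cells of healthy mice. Over all genes it called 692, 1720, 1895 and 619. With UMIs thinned to 1000 per cell, counts fell to 4 (Car4 cells, MI against healthy), 1 (Apln cells, MI against healthy), 7 (Apln), 11 (Plvap-high) and 7 (Top2a against Car4 cells, MI mice) and 4 (Apln against Car4 cells, healthy mice), where fewer UMIs are tested. In the same order, calls over all genes fell to 389, 116, 597, 1194, 1352 and 449, from 1293, 534, 1870, 3054, 3487 and 1243. Leaving out each mouse gave 4 to 7 in Car4 and 5 (without Healthy 239 or 240) to 10 in Apln cells between the groups, 14 to 18, 14 to 16 and 11 to 14 in the Apln, Plvap-high and Top2a cells of MI mice, and 5 (without Healthy 239) to 7 in Apln cells of healthy mice. Calls over all genes ran, in this order, from 629 to 1510, 330 to 676, 1281 to 1601, 2402 to 2780, 2694 to 3215 and 851 to 1115. With classes set on all UMIs, 21 members were called in Top2a cells (13 higher, 8 lower, in place of 6 and 8), against 4870 of 11284 genes in place of 3487 of 9852. The difference of effects called 0 members in all settings. Counted with at least 2 UMIs, the shares of 8 members did not overlap between the groups, in place of 14, and without each mouse this was 14 to 21.

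The sign turned only for members that were not called. Pgk1 (-0.05) was 0.14 with copied cells kept, 0.040 with library size alone, -0.37 to 0.36 without single mice and 0.89 without Healthy 227 and 228. Pfkfb3 (-0.46) was -0.78 to 0.11 without single mice (0.11 without Healthy 228) and 0.56 without both. Pfkp (0.07) was -0.0016 with copied cells kept, -0.062 to 0.19 without single mice (below 0 without Healthy 227 or 228) and -0.21 without both. Without both, Pfkl was -0.083 and Ankrd37 -0.21. The cause was not tested. MI against healthy in Plvap-high cells was not run, as healthy mice held 1 to 5 such cells. Depth limits Hk2, Slc2a3, Egln3 and Slc16a3 most.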
